A study of Saccharomyces cerevisiae with 56 samples.

Results

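Of the 1436 single-donor insertions in the lists used here, 207 carried a segment copied from a nuclear spacer, the DNA between neighbouring genes. A donor is the genomic place that an inserted segment matches. A segment was counted as lying between genes when its midpoint fell in no gene of the R64 annotation of *Saccharomyces cerevisiae*. The midpoint also had to lie over 20 kb from a chromosome end and over 1 kb from a tRNA gene, and outside Ty elements, the rDNA and the mating-type cassettes. Another 502 segments met the same exclusions with a midpoint inside a gene (genic segments), so that the 207 were part of 709 interior segments. The remaining 727 insertions came from Ty (281), chromosome ends (120), rDNA (111), the neighbourhood of tRNA genes (75), the mating-type cassettes (74) and sequences other than the 16 chromosomes (66).

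*Break-Ins* is amplicon sequencing across the repaired *MAT***a** locus, in which the HO endonuclease made a single double-strand break in haploid cells plated on galactose. The 56 libraries fall into 17 genotypes, all in the JKM139 background, in which HO stands under the *GAL10* promoter at *ade3* (*ade3::GAL10::HO*). All strains are DELho and *MATa* with *hmr::ADE1* and *hml::ADE1*, and share the markers *ura3-52*, *lys5*, *ade1*, *trp1::hisG* and an allele of *leu2*. The replacement of *HML* and *HMR* leaves no homologous template, so the break was repaired by end joining. The genotypes were *rad27*Δ (14 libraries), *rtt105*Δ (8), *sgs1*Δ *exo1*Δ (4), RFA1-t33 (3) and *rtt105*Δ *rad27*Δ (3). The other 12 had 2 libraries each and were *rad27*Δ RFA1-t33, *rtt105*Δ *tel1*Δ, *rtt105*Δ *rad1*Δ, *sgs1*Δ, *exo1*Δ, *mre11*Δ, *mre11*-H125N, *lig4*Δ, *yku70*Δ, *pol32*Δ, *rev3*Δ and *rad30*Δ. Plates were kept at 30°C, except 6 of the *rad27*Δ libraries, of which 3 are labelled 23°C and 3 are labelled 37°C. No list of its own was used for *yku70*Δ, and no wild-type list was analysed here.

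Rad27 is the flap endonuclease that trims the 5′ ends of Okazaki fragments during lagging-strand synthesis. Rtt105 is a chaperone that brings RPA, the single-stranded DNA binding complex, into the nucleus and onto DNA, and the RFA1-t33 strain carries a mutant form of its large subunit. Sgs1 and Exo1 carry out long-range resection of broken ends. Yeast spacers are short and are of 3 kinds. A divergent spacer lies between a pair of gene starts and holds the promoters of both genes. A convergent spacer lies between a pair of gene ends and holds terminators. A tandem spacer has a gene end on one side and a gene start on the other. Gene starts and ends are here those of the annotated coding span or RNA gene, without untranslated regions.

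Segments between genes were found in 8 of the 16 genotypes with a list. The list of *rtt105*Δ held 62 among 374304 colonies, that of *rtt105*Δ *rad27*Δ 58 among 111840 and that of *rad27*Δ 53 among 820032. The list of *rad27*Δ RFA1-t33 held 15 among 14976 colonies. Lower numbers were listed for *sgs1*Δ *exo1*Δ (8 of 55000), RFA1-t33 (5 of 53184), *rtt105*Δ *tel1*Δ (4 of 79360) and *sgs1*Δ (2 of 106080). None was listed for *rtt105*Δ *rad1*Δ, for either *mre11* mutant, or for *rev3*Δ, *pol32*Δ, *rad30*Δ, *exo1*Δ and *lig4*Δ. These lists held no genic segment either, apart from 2 in *rtt105*Δ *rad1*Δ.

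Per 10000 colonies, the frequency of segments between genes was 0.646 in *rad27*Δ (exact binomial 95% interval 0.484 to 0.845), 1.66 in *rtt105*Δ (1.27 to 2.12) and 5.19 in *rtt105*Δ *rad27*Δ (3.94 to 6.70). It was 10.0 in *rad27*Δ RFA1-t33 (5.61 to 16.5) and 0.940 in RFA1-t33 (0.305 to 2.19). The double mutant *rtt105*Δ *rad27*Δ exceeded *rad27*Δ by 8.02-fold (Fisher's exact test, two-sided, Benjamini-Hochberg adjusted p = 1.6e-23) and *rtt105*Δ by 3.13-fold (adjusted p = 6.1e-09). The frequency in *rad27*Δ was 0.390 times that in *rtt105*Δ (adjusted p = 1.7e-06). The labels do not say whether the pooled list holds insertions of the 3 *rad27*Δ libraries labelled 37°C. Those libraries make up 219360 of the 820032 colonies. The study's supplement counts 600672 colonies for *rad27*Δ, the number without them. If the list leaves them out, the frequency over 820032 colonies is too low. Over the 600672 colonies the frequency in *rad27*Δ was 0.882 (0.661 to 1.15). The double mutant then exceeded it by 5.88-fold (adjusted p = 5.0e-18, Fisher's exact test), and it was 0.533 times that in *rtt105*Δ (adjusted p = 0.0017). The lists pool the libraries of a genotype, so the intervals and p-values cover counting error only and not the spread between libraries. Colonies were not corrected for cells in which HO did not cut. For this the study's supplement takes off a larger share of colonies in *rad27*Δ and in *rtt105*Δ than in *rtt105*Δ *rad27*Δ. With that correction both folds of the double mutant would be lower.

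The comparison with *mre11*-H125N, a strain with a nuclease-dead Mre11, used the list with the most colonies outside *rad27*Δ and *rtt105*Δ. It held 0 segments between genes among 144320 colonies, for which the limit that a count of 0 allows, 3 counts over the group, is 0.208 per 10000 colonies. Of the 15 other genotypes, 7 were higher at an adjusted p under 0.05. The frequency was at least 48.2-fold higher in *rad27*Δ RFA1-t33 (adjusted p = 2.4e-15, Fisher's exact test), at least 24.9-fold in *rtt105*Δ *rad27*Δ (1.2e-20) and at least 7.97-fold in *rtt105*Δ (1.3e-08). It was at least 7.00-fold higher in *sgs1*Δ *exo1*Δ (adjusted p = 8.6e-05, Fisher's exact test), at least 4.52-fold in RFA1-t33 (0.0028) and at least 3.11-fold in *rad27*Δ (0.00074). The fold of *rad27*Δ was taken over all 820032 colonies. These folds set the measured frequency against that limit and leave out its own counting error. In *rtt105*Δ *tel1*Δ the frequency was 0.504 per 10000 colonies (adjusted p = 0.029, Fisher's exact test), with an interval of 0.137 to 1.29 that reaches below the limit. The 2 segments of *sgs1*Δ did not pass the test (adjusted p = 0.29). In the 8 genotypes without a segment the limit of 3 counts lay between 0.208 per 10000 colonies in *mre11*-H125N and 1.02 in *rtt105*Δ *rad1*Δ. A difference from several of the listed frequencies was therefore not detectable at this number of colonies.

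**Figure D1:**
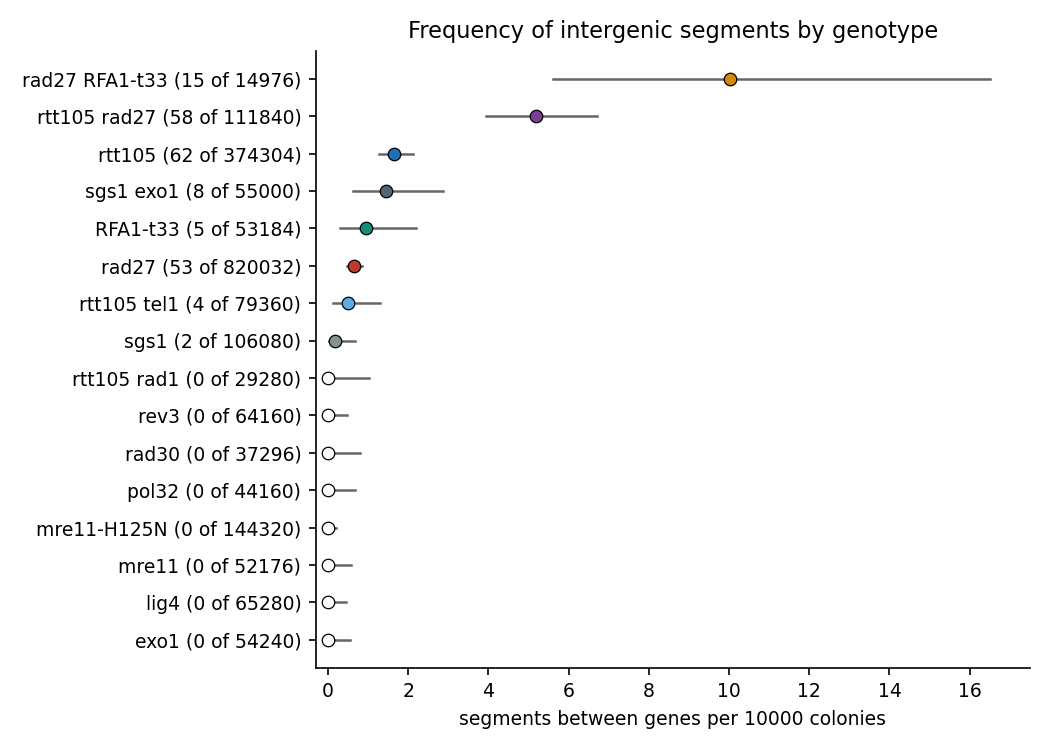
Segments between genes per 10000 colonies (horizontal axis) in the 16 genotypes with a list, ordered by frequency; points are the pooled frequency, lines the exact binomial 95% interval (at 0, the limit of 3 counts), and the segments and colonies stand beside each name. The intervals of *rad27*Δ RFA1-t33 (5.61 to 16.5) and *rtt105*Δ *rad27*Δ (3.94 to 6.70) lie above those of all other genotypes, and 8 genotypes are at 0.

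Spacers supplied 29.2% of the 709 interior segments (exact 95% interval 25.9 to 32.7) and make up 23.8% of the interior bases of R64. By genotype, the share was 25.9% in *rad27*Δ (53 of 205 interior segments, 20.0 to 32.4) and 31.5% in *rtt105*Δ (62 of 197, 25.1 to 38.5). In *rtt105*Δ *rad27*Δ it was 29.4% (58 of 197, 23.2 to 36.3). The interval of all 709 segments does not hold 23.8%, and of these 3 genotypes only that of *rtt105*Δ does not. The share against bases was not tested. The difference between *rad27*Δ and *rtt105*Δ was -5.62 percentage points, with a 95% interval from -14.4 to 3.21 (Fisher's exact test, adjusted p = 0.46). For *rtt105*Δ *rad27*Δ against *rtt105*Δ the difference was -2.03 points and the interval ran from -11.0 to 7.02 points (adjusted p = 0.82). Neither difference was detectable with these numbers of segments. *rad27*Δ RFA1-t33 (30.0%, 15 of 50) and *sgs1*Δ *exo1*Δ (32.0%, 8 of 25) had wider intervals, as had *rtt105*Δ *tel1*Δ (57.1%, 4 of 7, 18.4 to 90.1), and were not tested.

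The length of the segments differed between the genotypes. In *rad27*Δ the 53 segments measured 36 to 136 bp with a median of 63 bp (exact order-statistic 95% interval 55 to 66), and 10 were shorter than 50 bp. In *rtt105*Δ the 62 segments measured 47 to 438 bp with a median of 122.5 bp (102 to 162), and 14 were longer than 200 bp. In *rtt105*Δ *rad27*Δ the 58 segments measured 29 to 463 bp with a median of 65.5 bp (61 to 75), and 3 were longer than 200 bp. The median of the double mutant thus lay beside that of *rad27*Δ, although its longest segments reached the lengths of *rtt105*Δ. The ranges of both single mutants overlapped between 47 and 136 bp.

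Under 100 bp were 50 of 53 segments in *rad27*Δ (94.3%), 50 of 58 in *rtt105*Δ *rad27*Δ (86.2%) and 19 of 62 in *rtt105*Δ (30.6%). The share in *rad27*Δ was 63.7 percentage points above that in *rtt105*Δ (95% interval 48.0 to 74.4, Fisher's exact test, adjusted p = 5.5e-12). The share in *rtt105*Δ *rad27*Δ was 55.6 points above that in *rtt105*Δ (39.0 to 67.6, adjusted p = 2.3e-09). Between *rtt105*Δ *rad27*Δ and *rad27*Δ the difference was -8.13 points (-19.9 to 3.63, adjusted p = 0.46). Most segments of *rad27*Δ (41) and *rtt105*Δ (56) came from separate sequencing runs, named by the read that the lists keep. The run that both lists share held 3 *rad27*Δ segments of 45, 70 and 101 bp and 6 *rtt105*Δ segments of 51, 106, 123, 227, 374 and 397 bp. Within it 2 of 3 and 1 of 6 were under 100 bp (Fisher's exact test, p = 0.23), the same direction with too few segments to pass. All 58 segments of *rtt105*Δ *rad27*Δ came from a run that it shared with RFA1-t33 and with neither single mutant.

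The other genotypes had few segments. In *rad27*Δ RFA1-t33 the 15 segments had a median of 93 bp (70 to 132) and a range of 36 to 165 bp. In RFA1-t33 they measured 71, 130, 162, 204 and 407 bp. In *sgs1*Δ *exo1*Δ they measured 87, 105, 109, 158, 159, 227, 330 and 390 bp, in *rtt105*Δ *tel1*Δ 53, 104, 105 and 156 bp, and in *sgs1*Δ 284 and 290 bp. The segments of RFA1-t33, *sgs1*Δ *exo1*Δ, *rtt105*Δ *tel1*Δ and *sgs1*Δ all fell in the wide range of *rtt105*Δ (47 to 438 bp). Some of them also lay in the range of *rad27*Δ (36 to 136 bp). These were 71 and 130 bp in RFA1-t33, 87, 105 and 109 bp in *sgs1*Δ *exo1*Δ, and 53, 104 and 105 bp in *rtt105*Δ *tel1*Δ. The longest *rad27*Δ segment, at 136 bp, was shorter than 5 of the 8 of *sgs1*Δ *exo1*Δ.

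No difference in length between segments from spacers and from genes was detected at the limit of 100 bp. In *rad27*Δ the genic segments had a median of 60.5 bp (152 segments, 25 to 122 bp), and 98.0% were under 100 bp against 94.3% between genes (difference -3.69 points, -13.5 to 1.54, adjusted p = 0.46). In *rtt105*Δ the genic median was 158 bp (135 segments, 49 to 463 bp), above the 122.5 bp of the spacers. Under 100 bp were 23.0% of the genic and 30.6% of the spacer segments of *rtt105*Δ (difference 7.68 points, -5.04 to 21.5, adjusted p = 0.46). In *rtt105*Δ *rad27*Δ the shares were 86.3% and 86.2% (difference -0.124 points, -12.2 to 9.30, adjusted p = 1). None of these differences passed Fisher's exact test.

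**Figure D2:**
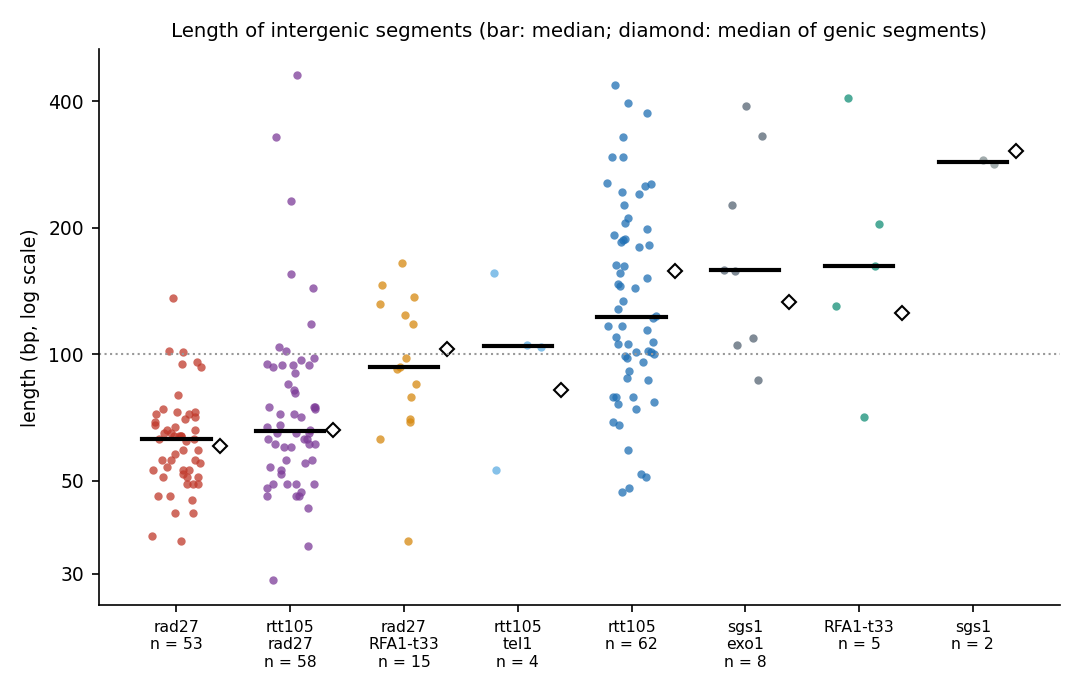
Length in bp (vertical axis, log scale) of each segment between genes in the 8 genotypes that have any; bars are medians, diamonds the median of the genic segments of the same genotype, and the dotted line is 100 bp. The points of *rad27*Δ and *rtt105*Δ *rad27*Δ gather around medians of 63 and 65.5 bp, and those of *rtt105*Δ spread around 122.5 bp up to 438 bp.

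The 3 kinds of spacer were represented about in proportion to the bases they occupy. After the same exclusions, R64 holds 1461 divergent, 2672 tandem and 1429 convergent spacers, with medians of 497, 386 and 214 bp. By number, divergent spacers are 26.3%, tandem 48.0% and convergent 25.7%. By bases they are 34.4%, 50.6% and 15.0%. Of the 207 segments, 72 were divergent (34.8%, 95% interval 28.3 to 41.7), 103 tandem (49.8%, 42.8 to 56.8) and 32 convergent (15.5%, 10.8 to 21.1). All of these intervals hold the share by bases, and the intervals for divergent and convergent spacers do not hold the share by number.

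Divergent spacers gave 23 of 53 segments in *rad27*Δ (43.4%), 20 of 62 in *rtt105*Δ (32.3%) and 15 of 58 in *rtt105*Δ *rad27*Δ (25.9%). Convergent spacers gave 7 (13.2%), 12 (19.4%) and 12 (20.7%), and tandem spacers 23, 30 and 31. Against *rtt105*Δ, the divergent share of *rad27*Δ was 11.1 points higher (-6.41 to 28.0, adjusted p = 0.46) and its convergent share 6.15 points lower (-19.4 to 7.93, adjusted p = 0.63). Neither passed Fisher's exact test. In *rad27*Δ RFA1-t33, 8 of the 15 segments were divergent, 7 tandem and 0 convergent, where the exact interval allows up to 21.8% convergent. Lengths were also described by kind of spacer, without a test. Medians in divergent, tandem and convergent spacers were 63, 64 and 53 bp in *rad27*Δ, 122.5, 122.5 and 129.5 bp in *rtt105*Δ, and 74, 65 and 64 bp in *rtt105*Δ *rad27*Δ.

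**Figure D3:**
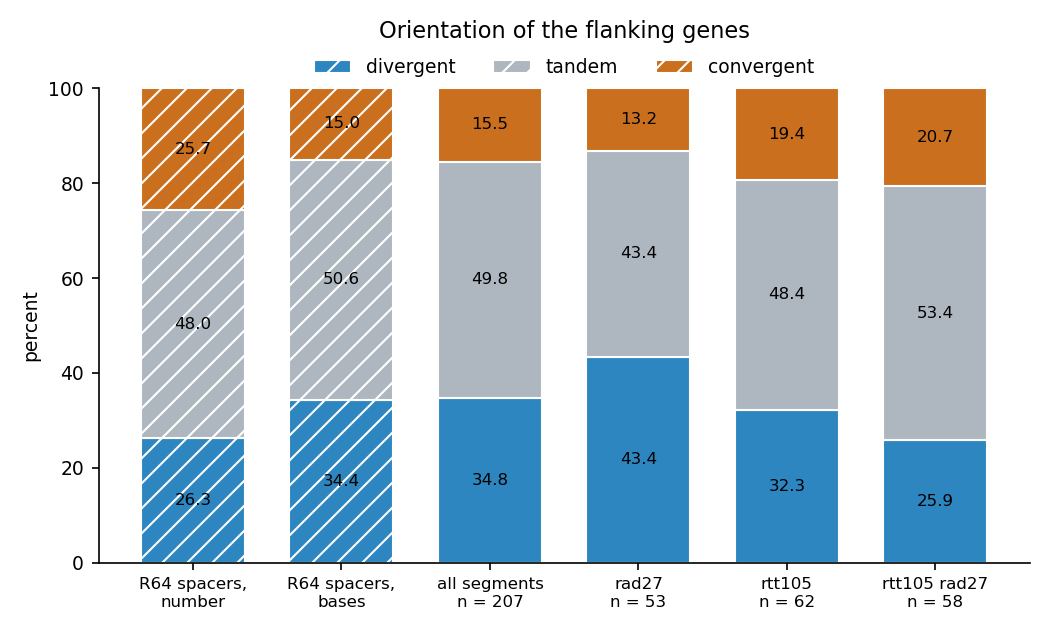
Percent of divergent, tandem and convergent spacers (stacked, vertical axis) for the interior spacers of R64 by number and by bases (hatched) and for the segments of all genotypes, *rad27*Δ, *rtt105*Δ and *rtt105*Δ *rad27*Δ (plain). The bar of all segments (34.8, 49.8 and 15.5%) is close to that of the bases (34.4, 50.6 and 15.0%).

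Distances were measured from the midpoint of a segment to the nearest gene start and the nearest gene end. Over the 207 segments the median distance was 330 bp to a start (range 2 to 5816 bp) and 454 bp to an end, beside 271 and 394 bp for all interior spacer bases of R64. Nearer to a start than to an end were 113 segments (54.6%), beside 59.5% of the bases. By genotype the share was 58.5% in *rad27*Δ (31 of 53), 51.6% in *rtt105*Δ (32 of 62) and 50.0% in *rtt105*Δ *rad27*Δ (29 of 58). The difference between *rad27*Δ and *rtt105*Δ was 6.88 points (-11.1 to 24.1, Fisher's exact test, adjusted p = 0.70). In *rad27*Δ RFA1-t33 12 of 15 segments were nearer a start, with a median distance of 150 bp to it.

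Within 200 bp of a gene start lay 68 segments (32.9%, beside 39.5% of the bases), and within 200 bp of a gene end lay 75 (36.2%, beside 33.2%). In divergent spacers 50.0% of the segments and 55.5% of the bases lay within 200 bp of a start. In tandem spacers the median distance to a start was 333 bp for the segments and 257 bp for the bases, and 46.6% and 40.2% lay within 200 bp of an end. None of these gaps was tested. In convergent spacers 84.4% of both lay within 200 bp of an end. Over all kinds of spacer, 27 of the 58 segments of *rtt105*Δ *rad27*Δ (46.6%) lay within 200 bp of an end, beside 18 of 53 in *rad27*Δ (34.0%) and 22 of 62 in *rtt105*Δ (35.5%). That order includes the repeated loci described below and was not tested.

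**Figure D4:**
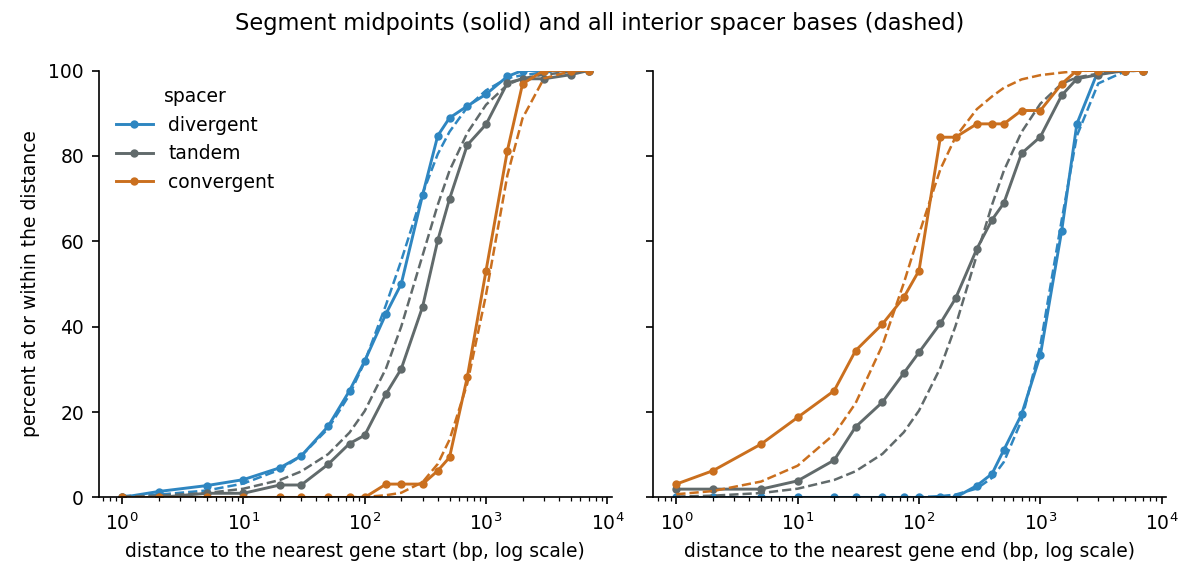
Percent of segment midpoints (solid, points) and of all interior spacer bases of R64 (dashed) at or within a distance in bp (horizontal axis, log scale) of the nearest gene start (left) and gene end (right), for the 3 kinds of spacer. Of segments and bases, 50.0 and 55.5% lie within 200 bp of a start in divergent spacers, and 46.6 and 40.2% within 200 bp of an end in tandem spacers.

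Of the 207 segments, 51 (24.6%, 95% interval 18.9 to 31.1) reached across a gene edge with the midpoint still in the spacer. The share was 24.5% in *rad27*Δ (13 of 53), 25.8% in *rtt105*Δ (16 of 62) and 22.4% in *rtt105*Δ *rad27*Δ (13 of 58). Over all genotypes 18 segments covered a gene start and 34 a gene end. In *rtt105*Δ *rad27*Δ they covered 1 start and 12 ends, in *rad27*Δ 5 and 8, and in *rtt105*Δ 5 and 11. All 4 such segments of *rad27*Δ RFA1-t33 covered a gene start. The gene ends include repeated loci described below, such as *SHE10*-*VID30*, and these counts were not tested. The listed strand was plus for 106 segments (51.2%, 44.2 to 58.2) and minus for the rest.

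The longest segments show the range. In *rtt105*Δ they were 438 bp at *BNS1*-*PHB2* (chromosome VII, 952281 to 952718) and 397 bp at *DSS4*-*RLF2* (chromosome XVI, 593775 to 594171). The third, of 374 bp, lay beside the Ty frame YLR256W-A (chromosome XII, 655469 to 655842). It may be part of that Ty element, which was not checked. The first spanned a whole convergent spacer of 240 bp and reached into both genes, of which *PHB2* encodes a prohibitin of the inner mitochondrial membrane. The second reached into *DSS4*, whose start was 56 bp from its midpoint, and lay in the divergent spacer toward *RLF2*, which encodes a subunit of chromatin assembly factor I. In *rtt105*Δ *rad27*Δ the longest were 463 and 232 bp, both in the tandem spacer *PBI2*-*HEF3*, and 328 bp on chromosome III. *HEF3* encodes a translational elongation factor. In *rad27*Δ the longest were 136 bp at *RPL9B*-*SUN4*, 102 bp at *MCH5*-*SLY41* and 101 bp at YER010C-*TIR1*.

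The segments named from the middle of the length order lay in tandem or divergent spacers. In *rad27*Δ they were 62 bp at *MRL1*-*TEF1*, 63 bp at *ANT1*-*SCD6* and 63 bp at *CAJ1*-YNCE0014W. *TEF1* encodes translation elongation factor eEF1A. In *rtt105*Δ they were 122 bp at *YNG1*-*CYT1*, 123 bp at *IRC15*-*SWI1* and 128 bp at *PIC2*-YER053C-A. *CYT1* encodes cytochrome c1 and *SWI1* a subunit of the SWI/SNF chromatin remodeller. In *rtt105*Δ *rad27*Δ they were 65 bp at *MNN9*-*DIG1*, 66 bp at YMR247W-A-*GAD1* and 67 bp at *APS1*-*DPH5*.

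The 207 segments fell in 186 spacers, of which 170 held a single segment. The other 16 held 2 or more and 13 of them were hit in 2 or more genotypes. Of the 51 spacers hit in *rad27*Δ and the 53 hit in *rtt105*Δ *rad27*Δ, 6 were shared (11.8% and 11.3%). *rad27*Δ and *rtt105*Δ (61 spacers) shared 2, and *rtt105*Δ and *rtt105*Δ *rad27*Δ shared 1. After the same exclusions R64 holds 5564 spacers in all, and the sharing was not tested. Overlapping segments within spacers hit more than once formed 24 pairs, and 19 of the pairs had the same listed strand. Pairs within a spacer are not independent. *SHE10*-*VID30*, *MUM2*-*UBP14*, *RPL25*-*MDH2* and *MNN9*-*DIG1* each gave several same-strand pairs, whereas each opposite-strand pair lay in a different spacer. The 10 pairs between *rad27*Δ and *rtt105*Δ *rad27*Δ came from separate sequencing runs, and 9 had the same strand. The 2 pairs between *rad27*Δ and *rtt105*Δ had opposite strands.

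The spacer *SHE10*-*VID30* on chromosome VII (69332 to 69670, tandem) held the most segments. *VID30* encodes a subunit of the GID ubiquitin ligase that degrades gluconeogenic enzymes. Its segments spanned 69286 to 69379, 69305 to 69379 and 69324 to 69383 in *rtt105*Δ *rad27*Δ and 69302 to 69381 in *rad27*Δ. All 4 were on the plus strand, crossed the end of *SHE10* and ended between 69379 and 69383. Their starts were spread over 69286 to 69324, and 56 bp (69324 to 69379) were common to all.

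The spacer *MUM2*-*UBP14* on chromosome II (353294 to 353671, tandem) held 3 segments of *rad27*Δ from 2 sequencing runs. *MUM2* acts in meiotic mRNA methylation and *UBP14* encodes a ubiquitin-specific protease. The segments spanned 353592 to 353686, 353605 to 353663 and 353609 to 353677, all on the plus strand and next to the end of *UBP14*, with 55 bp in common. Within 500 bp lay 6 further donors from complex insertions, which join several donors at 1 break.

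The spacer *RPL25*-*MDH2* on chromosome XV (81191 to 81786, convergent) held 3 segments. *RPL25* encodes a protein of the large ribosomal subunit and *MDH2* the cytosolic malate dehydrogenase. The *rad27*Δ segment spanned 81638 to 81690 and those of *rtt105*Δ *rad27*Δ 81638 to 81731 and 81642 to 81690. Each shared an end with the *rad27*Δ segment, and all were on the minus strand. The spacer *MNN9*-*DIG1* on chromosome XVI (461967 to 462480, tandem) held segments at 462391 to 462455 and 462407 to 462478 in *rtt105*Δ *rad27*Δ and 462407 to 462502 in *rad27*Δ. *MNN9* encodes a Golgi mannosyltransferase subunit and *DIG1* an inhibitor of the mating transcription factor Ste12. These 3 were on the minus strand, and all lay beside the end of *DIG1*.

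Spacers hit once in each of a pair of genotypes included *SND1*-*CCT6* and *VIK1*-*YAH1*, both shared by *rad27*Δ and *rtt105*Δ *rad27*Δ. At *SND1*-*CCT6* the segments of 93 bp and 55 bp started at the same base (chromosome IV, 836329), just before the start of *CCT6*, a chaperonin subunit gene. At *VIK1*-*YAH1* those of 64 bp and 49 bp ended at the same base (chromosome XVI, 73098). *YAH1* encodes mitochondrial ferredoxin. *CLB4*-*ATG38*, with *CLB4* encoding a B-type cyclin, was hit in *rad27*Δ (66 bp, plus strand) and *rtt105*Δ (79 bp, minus strand), with 66 bp in common. YNCG0029C-*CLB1* was also hit in both, where the segments of 70 and 211 bp had 5 bp in common. *OCA1*-*RAS2*, which runs from the start of *OCA1* to the end of the Ras GTPase gene *RAS2*, was hit in *rad27*Δ (55 bp) and RFA1-t33 (204 bp), and the shorter lay within the longer on the opposite strand. *MST28*-*YAT1* was hit in *rtt105*Δ (91 bp) and *rtt105*Δ *rad27*Δ (46 bp) at the start of *YAT1*, a carnitine acetyltransferase gene.

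**Figure D5:**
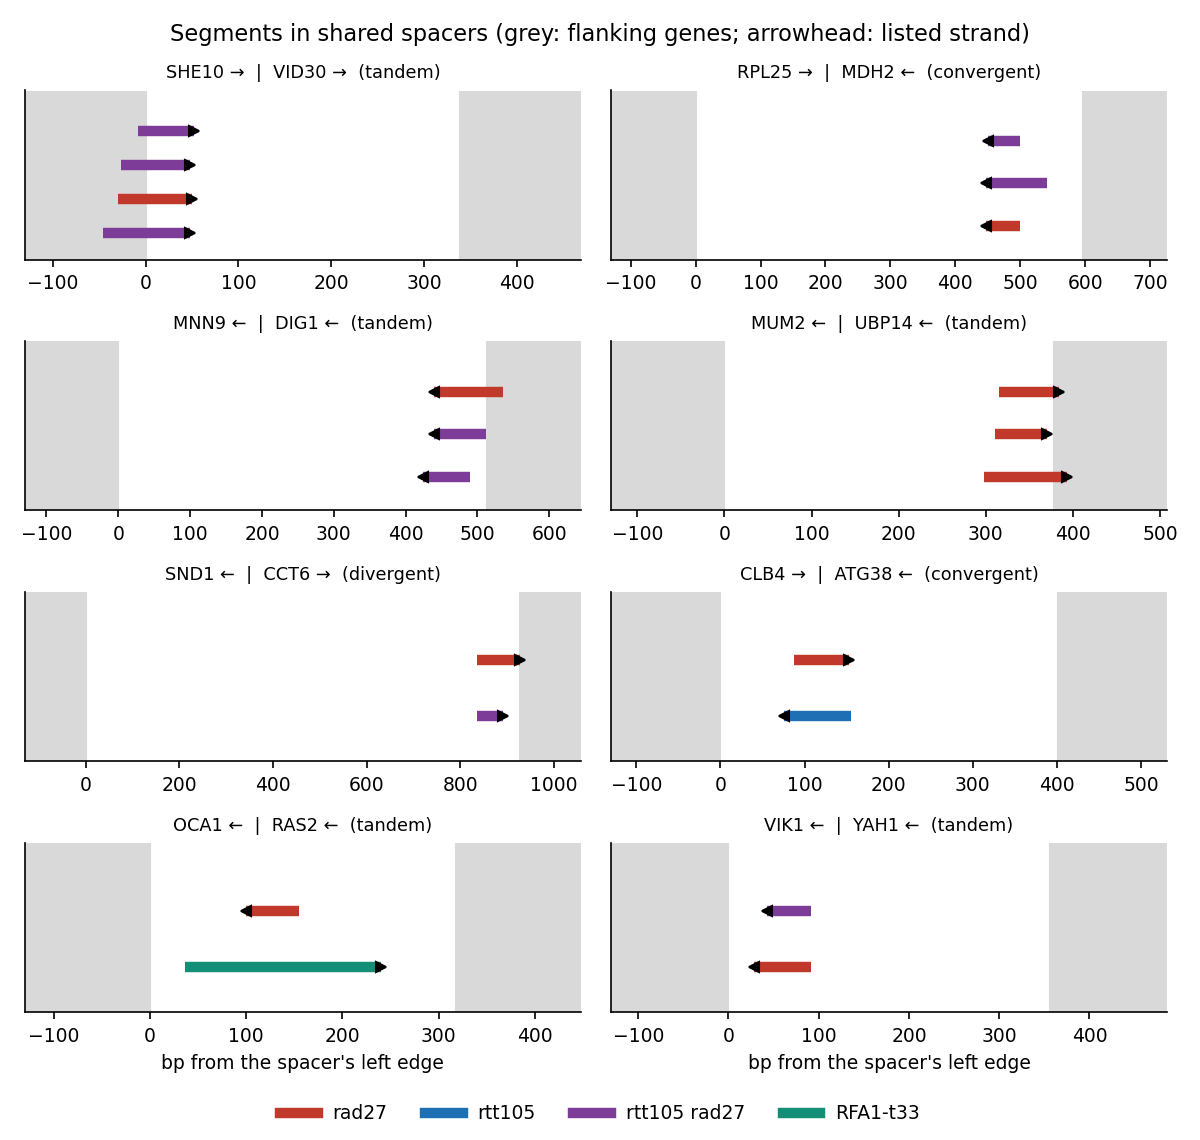
Segments (coloured by genotype; arrowhead, listed strand) in 8 spacers with several segments, placed by distance in bp from the left edge of the spacer (horizontal axis); flanking genes are grey, with arrows in the titles for their direction. At *SHE10*-*VID30* the 4 segments end within 5 bp of each other, and at *CLB4*-*ATG38* and *OCA1*-*RAS2* the overlapping segments point in opposite directions.

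Most segments stood alone: 154 of 207 had no other donor, single or complex, from any genotype within 500 bp. Of the other 53, 38 overlapped another donor and 43 lay near a donor of another genotype. By genotype, 14 of 53 segments in *rad27*Δ, 12 of 62 in *rtt105*Δ and 22 of 58 in *rtt105*Δ *rad27*Δ had such a neighbour. The same count is not given for genic segments, so these numbers do not set segments between genes apart from them. They also depend on how many donors the lists hold, and were not tested.

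Chromosome III, which carries the HO break, held 14 of the 207 segments (6.76%, 95% interval 3.75 to 11.1), from 7 genotypes, and has 2.31% of the interior spacer bases. Of the genic segments 10 of 502 lay there (1.99%, 0.959 to 3.63), beside 2.33% of the interior gene bases. This was noticed after the values were seen and was not tested. The 14 were 6 segments of *rtt105*Δ *rad27*Δ, 2 each of *rad27*Δ and *rtt105*Δ, and 1 each of *rad27*Δ RFA1-t33, RFA1-t33, *sgs1*Δ and *sgs1*Δ *exo1*Δ. Spacers hit by a pair of genotypes were YNCC0010C-*FEN2* (169357 to 169544 in *rtt105*Δ and 169458 to 169544 in *sgs1*Δ *exo1*Δ, on opposite strands) and *TAH1*-*TVS1* (224775 to 224856 in *rtt105*Δ *rad27*Δ and 224871 to 224941 in RFA1-t33, without overlap). The third was YCL001W-B-YCR001W, in which the centromere lies, with 114249 to 114576 in *rtt105*Δ *rad27*Δ and 114510 to 114558 in *rad27*Δ. Segments per 100 kb of spacer ranged from 2.81 on chromosome XIII to 13.9 on chromosome V among the other chromosomes, against 24.0 on chromosome III.

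Segments beside members of some well-known gene groups were counted. Ribosomal protein genes, which are highly transcribed, flanked 15 segments (7.25%, 95% interval 4.11 to 11.7), beside 5.53% of the interior spacer bases. Of these, 5 were from *rad27*Δ, 6 from *rtt105*Δ *rad27*Δ and 2 from *rtt105*Δ, as at *TEL1*-*RPL23A* (64 bp), *RPL41B*-*SRF1* (35 bp) and *ROX3*-*RPL32* (101 bp). Cell wall genes, among them the repeat-rich flocculin genes, flanked 7 segments (3.38%, 1.37 to 6.84), beside 2.21% of the bases. The flocculin spacers hit were *FLO9*-*GDH3*, *FLO5*-YHR212W-A (2 segments), YIR018C-A-*FLO11* and *SIR1*-*FLO10*. Glycolytic genes (*TDH2* and *GPM1*), snoRNA genes (*SNR43* and *SNR80*) and hexose transporter genes (*HXT6* and *HXT13*) flanked 2 segments each, 0.966% of the total beside 0.809%, 1.73% and 1.17% of the bases. Histone genes flanked 1, a segment of 85 bp in *rtt105*Δ *rad27*Δ between *HHT2* and *HHF2*, the divergent genes of histones H3 and H4. All of these intervals hold the share by bases.

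The *sgs1*Δ segment of 290 bp lay in a tandem spacer at *NPP1*-*RHB1* (chromosome III, 167002 to 167291), where *RHB1* encodes a Rheb-like GTPase. The *sgs1*Δ segments came from a run that also held 9 *rad27*Δ segments of 36 to 102 bp, so that within the run the lengths did not overlap.

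Some segments may lie in repeats that the gene annotation does not show. In 3 *rtt105*Δ segments a Ty reading frame flanked the spacer, more than 400 bp away. They were 2 segments in the 4494 bp spacer beside the Ty frame YLR256W-A and 1 at YER160C-*SPT2*. Whether the 2 segments beside YLR256W-A lie in the rest of that Ty element was not checked, so they may be Ty segments that the exclusion missed. Without the 3 segments the frequency in *rad27*Δ was 0.410 times that in *rtt105*Δ (adjusted p = 9.5e-06, Fisher's exact test). The difference in segments under 100 bp was then 62.1 points (adjusted p = 3.8e-11, Fisher's exact test). One *rtt105*Δ *rad27*Δ segment (104 bp, chromosome III, 291901 to 292004) lay in the spacer YCR095W-A-*HMRA2*, next to the *HMR* cassette that these strains replaced. Solo long terminal repeats and replication origins were not annotated in the table used here.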

How the data were processed

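The authors cleaned the reads with BBDuk, joined pairs with PEAR, searched for inserts over 10 bp by BLASTN, annotated the donors and collapsed redundant reads. The deposited lists give donor positions on R64, strand and a representative read name as other values, pooled over the libraries of a genotype, so that a line is a donor and the depth per library is unknown. Deposited starts were raised by 1. Members, gene lists and tests were chosen with earlier results of these data known. The gene table was RefSeq's for R64 (6431 nuclear genes). Strand was taken from the locus tag, which 1 gene does not give. The right end of a chromosome was the last annotated or listed base (a donor on 5 chromosomes). Cassettes were widened by 700 bp and Ty frames (91) by 400 bp, and rDNA was taken as 451000 to 469500 of chromosome XII. Colonies came from the labels. The deposited mapping names other lists for *rad27*Δ RFA1-t33 and *yku70*Δ, so lists were assigned by their names. Fisher's exact tests (SciPy 1.17.1, Python 3.11.15) were adjusted by Benjamini-Hochberg over 18 frequency and 11 share tests, and the steps were tested on simulated data. Intervals of single shares are Clopper-Pearson 95% and those of differences are Newcombe 95%. Flanking genes were named for spacers with 3 or more segments or 2 or more genotypes, the longest and middle lengths, the gene lists, and genotypes with 3 or fewer segments. The position of 1 segment is not reported here.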

Additional observations from a re-analysis of the deposited data

Results flagged for a closer look

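Donors of complex insertions, which join several donors at 1 break, were left out of the comparisons above, and some of them lay between genes by the same rule. There were 18 in *rtt105*Δ *rad27*Δ, 11 in *rad27*Δ, 11 in *rtt105*Δ and 5 in *rad27*Δ RFA1-t33. They came from lists of 22, 52, 81 and 6 complex donors, and 0 of the 2 complex donors of *mre11*-H125N lay between genes. Donors of the same complex insertion are not independent. No other value could be checked for a sample far from the rest, since the lists pool the libraries of a genotype.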

How the results depend on the processing

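The 15 results were recomputed under alternative settings, which gave 228 values in all. Of these values, 215 changed neither sign nor side of the threshold, and 2 of the 215 were exactly 0. Some settings were chosen after seeing the data. They were spacers beside a Ty frame left out, chromosome III left out, and the run shared by *rad27*Δ and *rtt105*Δ alone. Another was colonies of the first library only for *rtt105*Δ lacking *TEL1* or *RAD1*, to which those lists are attached. The frequency ratio of *rad27*Δ to *rtt105*Δ ranged from 0.368 to 0.533, that of *rtt105*Δ *rad27*Δ to *rad27*Δ from 5.88 to 8.71 and to *rtt105*Δ from 2.83 to 3.48, including a chi-square test and colonies of *rad27*Δ without the 37°C libraries (600672). None of the alternatives corrected colonies for cells that HO did not cut, a correction that differs between genotypes in the study's supplement. It would lower both ratios of *rtt105*Δ *rad27*Δ, and the ranges given do not cover it. The number of genotypes above *mre11*-H125N was 7 throughout. The difference in segments under 100 bp between *rad27*Δ and *rtt105*Δ ranged from 50.0 to 77.7 points, and was 65.8 and 40.3 points with the limit at 80 and 150 bp. It missed the threshold only in the shared run alone (50.0 points, p = 0.23). Counting from 10 kb from the chromosome ends, the difference between spacer and genic segments of *rad27*Δ passed (-10.6 points, adjusted p = 0.011). Differences also changed sign, and none of these was past the threshold under either setting. In *rtt105*Δ *rad27*Δ the difference in length between spacer and genic segments turned to 0.972 points with each spacer or gene counted once, 2.56 with no base in a gene, 1.68 at 30 kb from chromosome ends, 2.28 at 0.2 kb from tRNA genes, 0.317 with complex donors, 0.218 without donors under 40 bp and 1.70 without chromosome III. The share from spacers turned to 3.69 points with complex donors (*rtt105*Δ *rad27*Δ against *rtt105*Δ) and to 2.81 without the largest *rad27*Δ run (*rad27*Δ against *rtt105*Δ). Without that run the share under 100 bp of *rtt105*Δ *rad27*Δ against *rad27*Δ was 2.87 points, and without the larger *rtt105*Δ run the divergent share of *rad27*Δ against *rtt105*Δ was -6.60 points. The cause of these changes was not tested. No paired analysis was possible because the lists pool the libraries of a genotype, and libraries could not be left out in turn for the same reason.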
